A study of Homo sapiens with 6 samples.

Results

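Transcript levels of 8 S100 genes were followed in the human THP-1 line, an established line of monocytic leukaemia cells, after exposure to lipopolysaccharide (LPS) with or without the compound LC53. The genes were S100A8, S100A9, S100A12, S100P, S100A4, S100A6, S100A10 and S100A11. Every array probe that the platform's probe table pairs with 1 of these symbols and no other was taken. Each gene had 1 such probe, giving 8 of the 31741 probes and 8 of the 18255 genes that could be named. The probes were PH_hs_0045829 for S100A8, PH_hs_0006160 for S100A9, PH_hs_0001709 for S100A12, PH_hs_0000374 for S100P, PH_hs_0004661 for S100A4, PH_hs_0035739 for S100A6, PH_hs_0022578 for S100A10 and PH_hs_0019645 for S100A11.

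The study used 6 single-colour arrays of Cy5-labelled amplified RNA, 2 for each of 3 groups. LC53 plus LPS cells were exposed to 5 µM LC53 for 15 min before 50 ng/ml LPS was added for 8 h. LPS cells had the same LPS exposure without LC53, and resting cells had neither agent; all were kept in low-serum medium. Cells given LC53 alone were not analysed here, so a difference between LC53 plus LPS cells and LPS cells is not separated from what LC53 does without LPS. Whether the 2 arrays of a group represent separate cultures is not stated in the labels. The p-values set group differences against the spread between these arrays, which may be technical, so they may not extend to new cultures. The number of arrays limits the precision of every value.

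S100 proteins are small calcium-binding proteins built from EF-hand motifs, most of which act as dimers. In monocytes and neutrophils S100A8 and S100A9 pair as calprotectin, and together with S100A12 they are released as alarmins, signals of tissue stress that engage Toll-like receptor 4 (TLR4) and the receptor for advanced glycation end products (AGER). LPS, a component of the outer membrane of Gram-negative bacteria, is itself sensed through TLR4 with its partners LY96 and CD14. Other family members act mainly inside the cell, where calcium lets most of them bind annexins, myosin or cytoskeletal linkers.

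Of 10 listed monocytic markers 9 had a probe with 1 symbol, and all 9 averaged at least 50 intensity units. LYZ averaged 14682 in LC53 plus LPS cells, 12182 in LPS cells and 13222 in resting cells. The level of 50 units lies below every array's median and does not identify a cell type. It was also reached by 4 of 6 neutrophil, 4 of 7 T and NK cell and 3 of 4 B cell markers. Of keratinocyte and epithelial markers 3 of 6 reached it, and of fibroblast markers 3 of 6. The 9 monocytic markers summed to 19636 to 24036 in LC53 plus LPS cells, 23150 to 29553 in LPS cells and 24666 to 25553 in resting cells. LYZ was the largest part of each sum. Of the 9 markers, 2 rose in LPS against resting cells (MPEG1 and SPI1). In LC53 plus LPS against LPS cells 2 fell (MPEG1 and CSF1R). Without passing, CD33 averaged 2867 units in LPS cells and 4698 in resting cells, CD68 1860 and 2458, and CD14 1221 and 733. In bulk RNA, fewer cells of a kind and less RNA per cell cannot be told apart. Array medians were 110.5 and 112.7 in LC53 plus LPS cells, 84.4 and 124.0 in LPS cells and 99.2 and 110.9 in resting cells, so the 2 LPS arrays differed most in overall brightness. The median probe differed by 0.15 (log2) between LC53 plus LPS and LPS cells, by 0.11 between LC53 plus LPS and resting cells and by -0.05 between LPS and resting cells. Between 38 and 95 probes per array stood at the scanner's ceiling, among them S100A4 on all 6 arrays and S100A6 on 1. Intensities of different probes are not comparable as amounts of RNA, so each gene is compared only with itself across arrays.

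S100A9, S100A12 and S100A8 are next to each other in that order among the protein-coding genes of chromosome 1, while S100P is the only member on chromosome 4. The 250 bases before the annotated start are shown for these genes, whose values differed most between groups. They are RefSeq sequences of GRCh38.p14, written along the gene's own strand, with motif matches in capitals. For S100A8, which has 3 annotated starts in the sequence table, the window shown is the one with a TATA box near its end (chr1:153391074-153391323, minus strand), and it includes bases transcribed from a start further upstream.
S100A8: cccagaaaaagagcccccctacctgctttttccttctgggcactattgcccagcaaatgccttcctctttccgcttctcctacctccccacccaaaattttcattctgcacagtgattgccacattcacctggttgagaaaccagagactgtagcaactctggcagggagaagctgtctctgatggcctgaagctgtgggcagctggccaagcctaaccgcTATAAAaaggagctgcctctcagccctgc
S100A9: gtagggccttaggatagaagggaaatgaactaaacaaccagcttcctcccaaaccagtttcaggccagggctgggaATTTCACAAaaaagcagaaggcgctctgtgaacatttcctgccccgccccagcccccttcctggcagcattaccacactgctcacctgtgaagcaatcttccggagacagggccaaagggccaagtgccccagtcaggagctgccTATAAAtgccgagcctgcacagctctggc
S100A12: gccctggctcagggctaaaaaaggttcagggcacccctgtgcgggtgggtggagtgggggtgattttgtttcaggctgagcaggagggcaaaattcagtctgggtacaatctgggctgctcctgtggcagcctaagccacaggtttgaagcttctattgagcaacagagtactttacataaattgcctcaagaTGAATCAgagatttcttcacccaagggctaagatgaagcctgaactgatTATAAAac
S100P: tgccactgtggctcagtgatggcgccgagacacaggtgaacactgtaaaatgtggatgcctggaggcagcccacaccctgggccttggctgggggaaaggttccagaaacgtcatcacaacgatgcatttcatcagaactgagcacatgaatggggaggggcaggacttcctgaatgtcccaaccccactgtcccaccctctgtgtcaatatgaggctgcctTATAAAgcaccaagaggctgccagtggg
The other windows are chr1:153357604-153357853 (plus strand) for S100A9, chr1:153375622-153375871 (minus strand) for S100A12 and chr4:6693628-6693877 (plus strand) for S100P. The letters TATAAA stood at -29 from the start in S100A8 and S100A9, at -28 in S100P and at -8 in S100A12. S100A9 also held ATTTCACAA, a C/EBP match (TTNNGNAAT) on the other strand, from -174 to -166. S100A12 held TGAATCA from -57 to -51, a match to the AP-1 pattern searched (TGANTCA), in which the central base was left free. Such matches were not limited to the genes shown: S100A4 held TATAAA at -31, and S100A11 held TTCAGGAAT, a C/EBP match, from -248 to -240. S100A6 and S100A10 had 0 matches. On either strand, TATAAA occurs in 10.7% of 35116 RefSeq windows of this length, TTNNGNAAT in 9.85% and TGANTCA in 6.57%. The NF-kB consensus (GGGA, any base, TTTCC; 0.527% of windows) and TGACNNNGC (antioxidant response element, 10.9%) were searched on both strands and were in no window of the 8 genes. None of these matches overlapped another. A match of this kind describes letters, not a bound site.

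LPS cells held more S100A12 mRNA than resting cells, and S100A8 and S100A9 read higher in LPS cells without passing the test. S100A12 is a calgranulin with AGER among its receptors. Its probe read 3312 and 3792 units on the LPS arrays, against 431 and 543 on the resting arrays. Both LPS arrays stood far above both resting arrays. S100A12 rose by 2.87 ± 0.22 (log2 difference ± SE, 7.33-fold, adjusted p = 0.00207), and its difference ranked 192 from the highest among 18255 genes. The test was limma's moderated test on log2 intensity over all 6 arrays, with Benjamini-Hochberg adjustment over all probes and a threshold of 0.05. The S100A12 call was kept under 14 of 14 other settings, with adjusted p between 0.000185 and 0.0256.

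S100A8 is the smaller partner of calprotectin. Its probe read 31536 and 32960 units on the LPS arrays, against 17098 and 20118 on the resting arrays. The groups did not overlap, and the difference was 0.80 ± 0.19 (95% interval 0.33 to 1.26, 1.74-fold, adjusted p = 0.0726). S100A9, the partner of S100A8, read 31016 and 40648 units on the LPS arrays, against 18198 and 20439 on the resting arrays. The groups did not overlap here either, although the 2 LPS arrays lay far apart, and the difference was 0.88 ± 0.21 (95% interval 0.36 to 1.40, adjusted p = 0.0745). S100A8 passed in 5 of 14 alternatives and S100A9 in 6. After quantile normalization the adjusted p was 0.0217 for S100A8 and 0.0137 for S100A9, and without dim probes 0.0249 and 0.0254. With only the 4 arrays compared it was 0.164 and 0.165, and the highest over the alternatives was 0.529 for S100A8 and 0.476 for S100A9.

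**Figure D1:**
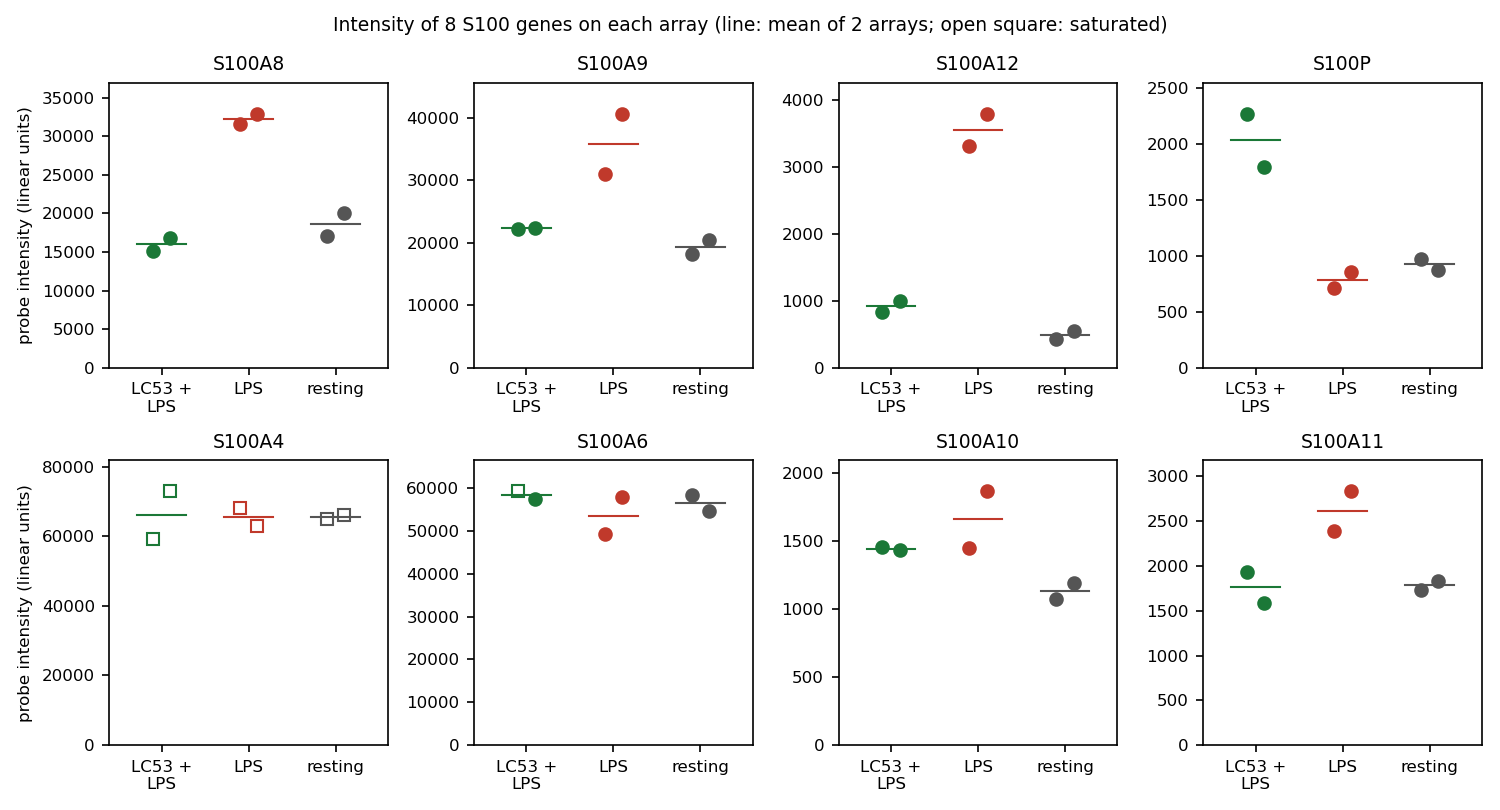
Intensity of the 8 S100 probes (linear axis from 0, deposited units) on the 2 LC53 plus LPS arrays, the 2 LPS arrays and the 2 resting arrays; points are arrays, lines are means of 2 arrays, and open squares are values at the scanner's ceiling. S100A12 stands at 3312 and 3792 units on the LPS arrays, above every other array of that probe, and S100P at 2269 and 1792 units on the LC53 plus LPS arrays.

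The remaining members did not pass in LPS cells. S100P, which binds ezrin inside cells and AGER outside them, read 708 and 854 units on the LPS arrays, against 971 and 873 on the resting arrays. All LPS values lay below the resting values, by -0.24 ± 0.22 (adjusted p = 0.626). S100A10, known as p11, does not need calcium to bind annexin A2, and it read 1451 and 1871 units on the LPS arrays, against 1073 and 1194 on the resting arrays. S100A11, a partner of annexin A1, read 2393 and 2840 units on the LPS arrays, against 1737 and 1829 on the resting arrays. For both genes the LPS arrays were the brighter, with differences of 0.54 (95% interval 0.03 to 1.05, adjusted p = 0.226) for S100A10 and 0.55 (95% interval 0.04 to 1.05, adjusted p = 0.216) for S100A11.

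Among the 8 members, counting the saturated S100A4 probe as not called, 1 rose and 0 fell in LPS cells, where 6.52% of all probes were called, 4.02% higher and 2.5% lower. At an unadjusted p below 0.05 there were 5 member probes, but the share of all probes at that level was not counted. The 5 are therefore no result about the members. The LPS arrays lay wholly above the resting arrays for 5 members and wholly below for 1, while 46.4% of all probes separated, 21.2% upward and 25.2% downward. The median log2 difference of the 7 members other than S100A4 was 0.55, beside -0.07 over all genes. Of 6 fibroblast markers 3 rose with LPS, and the 6 summed to 827 to 1055 units on the LPS arrays, against 492 to 500 on the resting arrays. PDGFRB averaged 125 units in LPS cells, against 3.01 in resting cells. COL1A1 averaged 354 units in LPS cells and 399 in resting cells, with overlapping arrays. COL1A2 and COL3A1 averaged at most 11.8 units in any group. The part of these markers in the S100 values was not tested. Neutrophil markers, of another cell type rich in S100A8, S100A9 and S100A12, summed to 5462 to 5743 units on the LPS arrays, against 5848 to 6073 on the resting arrays. Of the 6 measured, 0 rose and 1 fell (CXCR2, 206 units in LPS cells and 703 in resting cells). LTF averaged 2934 units in LPS cells and 1958 in resting cells and MMP8 30.4 and 19.0, neither passing, CSF3R averaged 2294 and 3110.01 and CXCR1 136 and 168, and the defining marker CEACAM8 was near the floor of the scale in all 3 groups.

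LC53 plus LPS cells held less S100A12 mRNA and more S100P mRNA than LPS cells. S100A12 read 829 and 999.8 units on the LC53 plus LPS arrays, against 3312 and 3792 on the LPS arrays. Both LC53 plus LPS arrays were below both LPS arrays, and S100A12 fell by 1.96 ± 0.22 on the log2 scale (3.89-fold lower, adjusted p = 0.0155). This call was lost without LC53 plus LPS replicate 1 (adjusted p = 0.111) and without replicate 2 of that group (0.0984), the difference lying between -2.10 and -1.83 over all 14 alternatives. The comparison shares its LPS arrays with the comparison above, so the 2 differences are not independent. Of the 6 fibroblast markers 3 fell here (PDGFRB, DCN and LUM), while COL1A1 averaged 457 units in LC53 plus LPS cells and 354 in LPS cells. The 6 summed to 570 to 599 units on the LC53 plus LPS arrays, against 827 to 1055 on the LPS arrays. Their part in the S100A12 value was not tested.

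S100P read 2269 and 1792 units on the LC53 plus LPS arrays, against 708 and 854 on the LPS arrays. The 2 groups were well apart. S100P rose by 1.37 ± 0.22 (log2, 2.59-fold, adjusted p = 0.0390) and ranked 217 from the highest of 18255 genes. Relative to the median of all probes, which was itself 0.15 higher in LC53 plus LPS cells, the S100P difference was 1.23 and the S100A12 difference -2.11. The S100P call was lost without LC53 plus LPS replicate 1 (adjusted p = 0.229), LC53 plus LPS replicate 2 (0.157), LPS replicate 1 (0.0889) or either resting replicate (0.130 each), and it was also lost with only the 4 arrays compared (0.130) and with the array scaling undone (0.163). Its difference stayed between 1.20 and 1.55 in all 14 alternatives. Epithelial markers, of a tissue type where S100P is abundant, summed to 766 to 801 units on the LC53 plus LPS arrays, against 516 to 611 on the LPS arrays. None of the 6 measured passed the limma test in this comparison; EPCAM averaged 160 units in LC53 plus LPS cells and 38.9 in LPS cells, KRT8 65.2 and 33.9, KRT14 488 and 427, SFN 48.6 and 40.6, KRT5 13.04 and 11.4, and CDH1 8.09 and 11.5, and their part in the S100P value was not tested.

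S100A8 read 15171 and 16789 units on the LC53 plus LPS arrays, against 31536 and 32960 on the LPS arrays. The groups did not overlap, and the difference was -1.01 ± 0.19 (95% interval -1.48 to -0.55, adjusted p = 0.0600). S100A9 read 22180.5 and 22416 units on the LC53 plus LPS arrays, against 31016 and 40648 on the LPS arrays. The groups were again apart, by -0.67 ± 0.21 (95% interval -1.19 to -0.15, adjusted p = 0.184). S100A8 passed in 5 of 14 alternatives (adjusted p 0.0104 to 0.321) and S100A9 in 3 (0.0195 to 0.522). After quantile normalization the adjusted p was 0.0104 for S100A8 and 0.0199 for S100A9, but S100A9 did not pass with an offset of 50 (0.0682) or without dim probes (0.0817).

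**Figure D2:**
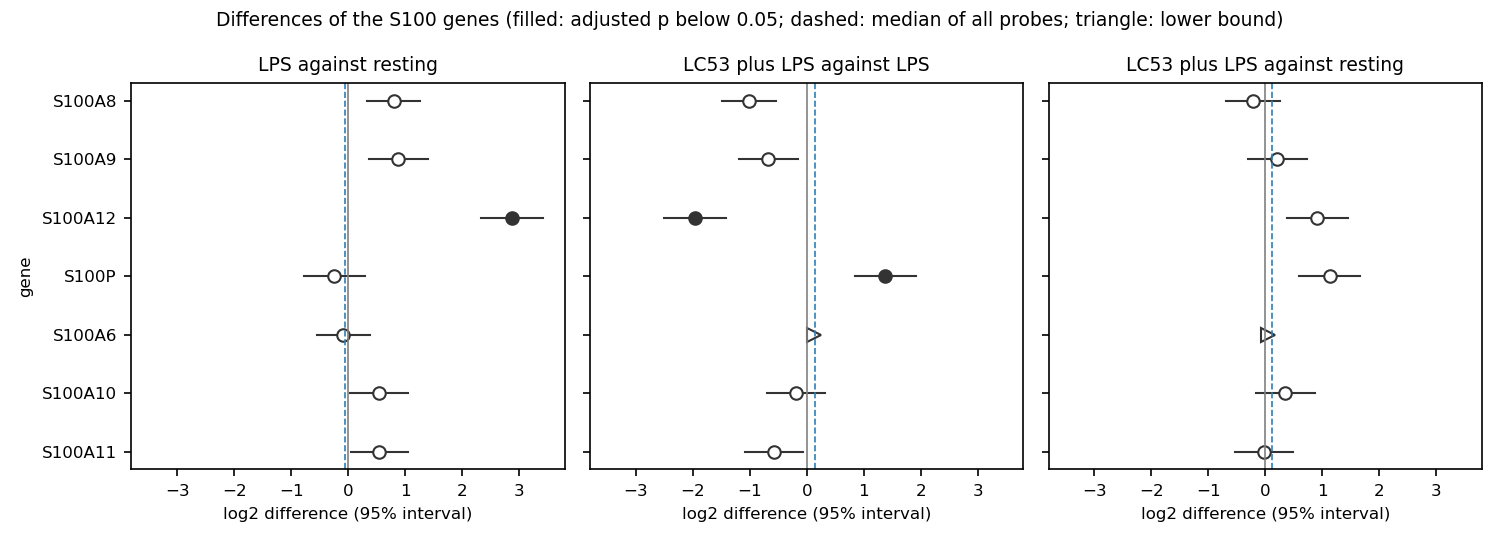
Log2 difference (x axis) of 7 S100 genes, S100A4 left out as saturated, with 1 panel per comparison; points are limma estimates, bars their 95% intervals, filled points passed at an adjusted p below 0.05, triangles are lower bounds of S100A6 with no interval, and the dashed line is the median of all probes. S100A12 passed in both comparisons that involve the LPS arrays, at 2.87 and -1.96, and S100P in LC53 plus LPS against LPS at 1.37.

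Of the intracellular members, S100A11 read 1937 and 1588 units on the LC53 plus LPS arrays, against 2393 and 2840 on the LPS arrays. Its LC53 plus LPS values were the lower (-0.57, 95% interval -1.08 to -0.07, adjusted p = 0.227). S100A10 read 1454 and 1437 units on the LC53 plus LPS arrays, against 1451 and 1871 on the LPS arrays. Those groups overlapped, with a difference of -0.19 (95% interval -0.70 to 0.32, adjusted p = 0.647). Among the 8 members, 1 rose and 1 fell with LC53, where 2.63% of all probes were called, 0.687% higher and 1.94% lower. An unadjusted p below 0.05 was reached by 5 member probes, and the share of all probes at that level was not counted. Arrays separated upward for 1 member and downward for 4, while 45.1% of all probes separated, 28.7% upward and 16.5% downward. The median log2 difference of the 7 members other than S100A4, with S100A6 at its lower bound, was -0.57, beside 0.16 over all genes. Without LPS replicate 2 the split of calls over all probes turned to 1695 higher and 623 lower, against 218 higher and 616 lower with all arrays.

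None of the members passed between LC53 plus LPS cells and resting cells. By limma 0 of 8 member probes were called, while 2.96% of all probes were called, 1.75% higher and 1.21% lower. An unadjusted p below 0.05 was reached by 2 member probes, and the share of all probes at that level was not counted. S100A12 averaged 914 ± 121 units in LC53 plus LPS cells and 487 ± 78.6 in resting cells (SD, n = 2 each). Neither group's arrays overlapped the other's; the difference was 0.91 (95% interval 0.37 to 1.45, adjusted p = 0.106). S100P averaged 2031 ± 338 units in LC53 plus LPS cells and 922 ± 68.9 in resting cells. Its difference was 1.13 (95% interval 0.59 to 1.67, adjusted p = 0.0618). S100P passed in 5 of 14 alternatives (adjusted p 0.0133 to 0.426) and S100A12 in 4 (0.0358 to 0.678), and neither passed when any single array was left out. S100A8 and S100A9 differed by -0.22 (95% interval -0.68 to 0.25) and 0.21 (95% interval -0.31 to 0.73), intervals that include 0. The members separated upward for 4 genes and downward for 1, while 57.8% of all probes separated, 37.1% upward and 20.7% downward, and the median of the same 7 members was 0.21 beside 0.10 over all genes.

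Placed by group, S100A12 was highest in LPS cells, next in LC53 plus LPS cells and lowest in resting cells, and only the last 2 did not differ by the test. S100A8 and S100A9 were highest in LPS cells too, but neither had a pair of groups that passed. S100P was highest in LC53 plus LPS cells, and its levels in resting and LPS cells were not separated by the test.

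S100A4, which binds non-muscle myosin, gave no usable comparison. Its probe stood at the ceiling of 65514 or 65515 scanner units on all 6 arrays. The deposited values of 59354 and 73103 in LC53 plus LPS cells, 68244 and 62996 in LPS cells and 64966 and 66073 in resting cells differ only through the factor by which each array was scaled. S100A6, or calcyclin, read 59353 and 57320 units in LC53 plus LPS cells, 49168 and 57894 in LPS cells and 58444 and 54588 in resting cells. All 3 groups overlapped, and the first LC53 plus LPS array was at the ceiling, so its value is a lower bound. The S100A6 difference of LC53 plus LPS from LPS cells is therefore also a lower bound, 0.13, with no interval. Between LPS and resting cells it was -0.08 (95% interval -0.54 to 0.38, with a spread estimated over all 6 arrays, the one at the ceiling included). On the arrays below the ceiling S100A6 read 47202 to 60209 scanner units, near that ceiling, and whether readings flatten there was not tested.

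**Figure D3:**
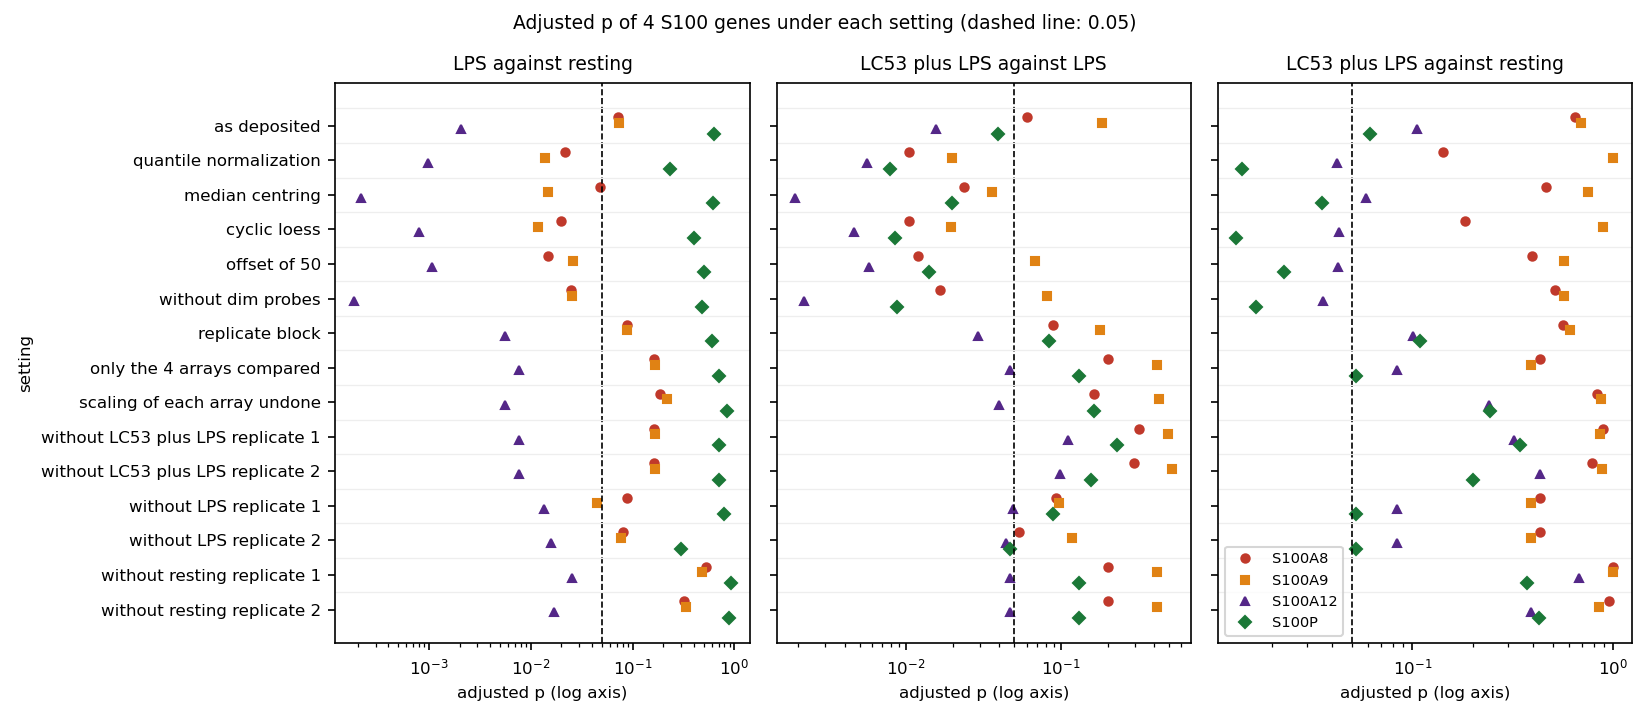
Adjusted p (log axis) of S100A8, S100A9, S100A12 and S100P for the values as deposited and under 14 other settings (y axis), with 1 panel per comparison; the dashed line marks 0.05. S100A12 lies below the line in LPS against resting cells under every setting, while S100P in LC53 plus LPS against LPS cells lies below it in 6 of the 14 alternatives.

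Of 12 other S100 genes listed, 11 had a probe with 1 symbol, and S100A7 was not analysed here. None of these 11 rose or fell in any comparison by limma, taking for each gene its brightest probe. Their median log2 difference was 0.16 between LPS and resting cells, 0.24 between LC53 plus LPS and LPS cells and 0.22 between LC53 plus LPS and resting cells. S100B, a marker of glial cells and a ligand of AGER, averaged 45.2 ± 2.39 units in LC53 plus LPS cells, 36.7 ± 9.24 in LPS cells and 81.6 ± 12.99 in resting cells. Both LPS arrays were below both resting arrays (-1.16 ± 0.25, adjusted p = 0.0552), and 6 of 14 alternatives passed, quantile normalization among them (0.00411). Its other probe gave -1.28 (adjusted p = 0.152).

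S100A13, which takes part in the release of leaderless proteins such as FGF1, read 1099.8 and 837 units in LC53 plus LPS cells, 529 and 757 in LPS cells and 410 and 498 in resting cells. Its LC53 plus LPS arrays stood above all 4 others, by 1.09 ± 0.27 against resting cells (adjusted p = 0.113), and 4 of 14 alternatives passed. The S100A3 probes differed from each other in LPS against resting cells: the brighter gave -0.15 (adjusted p = 0.816) and the dimmer 1.37 (adjusted p = 0.0405), on intensities of only 7.93 in LPS cells and 3.00 in resting cells. S100A2 averaged 454 units in LC53 plus LPS cells, 459 in LPS cells and 391 in resting cells, and S100Z 159, 131 and 133. The brighter S100A1 probe read 783 and 276 units on the 2 LC53 plus LPS arrays, a spread within 1 group wider than the gap between group means. S100A5, S100A7A, S100A14, S100A16 and S100G read at most 26.8 units on any array by their brightest probe, too dim to show a moderate change.

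**Figure D4:**
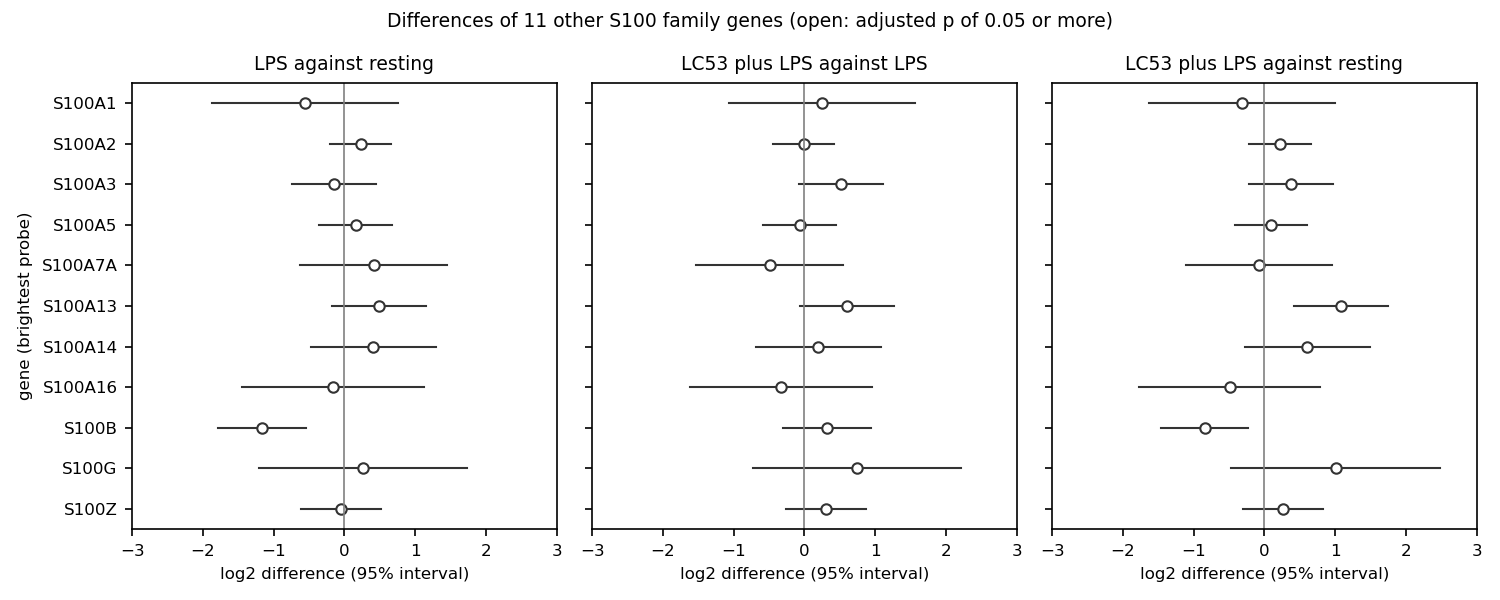
Log2 difference (x axis) of 11 other S100 genes, each by its brightest probe, with 1 panel per comparison; points are limma estimates, bars their 95% intervals, and open points did not pass. All points are open; S100B lies at -1.16 in LPS against resting cells and S100A13 at 1.09 in LC53 plus LPS against resting cells.

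Among 6 receptors and co-receptors of S100 proteins, 1 rose and 0 fell in LC53 plus LPS cells, both against LPS and against resting cells, and 0 of 6 passed in LPS against resting cells. The gene was LY96, the partner of TLR4 that holds LPS. It averaged 582 ± 7.83 units in LC53 plus LPS cells, 263 ± 14.8 in LPS cells and 265 ± 0.336 in resting cells. LY96 rose by 1.15 against LPS cells (adjusted p = 0.0338) and by 1.14 against resting cells (adjusted p = 0.0340). Against LPS cells the call was lost without LC53 plus LPS replicate 1 (0.222) or 2 (0.245), LPS replicate 1 (0.0625) or either resting replicate (0.151 each). Against resting cells it was lost without LC53 plus LPS replicate 1 (0.232) or 2 (0.220) and without resting replicate 1 (0.344) or 2 (0.320). The median of the 6 was -0.46 against LPS cells and 0.03 against resting cells, and 0.45 in LPS against resting cells, so LY96 differed in sign from the list's median in the first of these.

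Of 12 intracellular partners of S100 proteins, ANXA2 alone passed, and it rose. Annexin A2 forms a membrane-binding complex with S100A10. It averaged 891 ± 188 units in LC53 plus LPS cells, 1159.7 ± 40.8 in LPS cells and 196 ± 22.1 in resting cells. ANXA2 rose by 2.57 in LPS against resting cells (adjusted p = 0.00313, called in 14 of 14 alternatives) and by 2.17 in LC53 plus LPS against resting cells (adjusted p = 0.0115). The second call was lost without LC53 plus LPS replicate 1 (0.0867) or 2 (0.0595) and without resting replicate 1 (0.127) or 2 (0.0905). None of the 12 passed between LC53 plus LPS and LPS cells by limma. The partners' medians were 0.14 between LPS and resting cells, 0.11 between LC53 plus LPS and LPS cells and 0.09 between LC53 plus LPS and resting cells.

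Among 14 other alarmins 12 were measured. In LPS against resting cells 3 rose and 1 fell, where 4.02% of all probes were called higher and 2.5% lower. The 3 that rose had the largest differences and are named below, while the 1 that fell is not named. In LC53 plus LPS against LPS cells 0 rose and 2 fell, and 1 rose in LC53 plus LPS against resting cells. IL33, a cytokine of the interleukin-1 family released by damaged cells, averaged 14.7 units in LC53 plus LPS cells, 83.1 in LPS cells and 11.5 in resting cells. It rose by 2.85 with LPS (adjusted p = 0.0024) and fell by 2.50 on the log2 scale with LC53 (adjusted p = 0.00862), a call lost without LC53 plus LPS replicate 1 (0.0653) or 2 (0.0539). The IL33 probe was dim outside LPS cells, so its sizes rest on low readings: with an offset of 50 the differences were 1.11 and -1.04, both still called, and it was not among the probes kept when dim probes were left out. IL1A, another member of that family, averaged 116 units in LC53 plus LPS cells, 264 in LPS cells and 46.5 in resting cells. It rose by 2.50 with LPS (adjusted p = 0.00207), and fell by 1.18 with LC53 (adjusted p = 0.0415), a call that was kept only without LPS replicate 2 when single arrays were left out (0.246, 0.251, 0.0605, 0.153 and 0.153 without the other 5). IL1A in LC53 plus LPS cells was still 1.32 above resting cells (adjusted p = 0.0289; 0.79 with an offset of 50), lost without LC53 plus LPS replicate 1 (0.186) or 2 (0.201) and without resting replicate 1 (0.309) or 2 (0.226). LGALS3, the lectin galectin-3, averaged 4630 units in LC53 plus LPS cells, 7253 in LPS cells and 2118 in resting cells. It rose by 1.78 with LPS (adjusted p = 0.00864), lost without resting replicate 1 (0.104) or 2 (0.0609). The alarmins' median was 0.20 between LPS and resting cells, -0.06 between LC53 plus LPS and LPS cells and 0.13 between LC53 plus LPS and resting cells.

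Of 14 transcription factors that bear on S100A8 and S100A9, all were measured, and 3 rose and 0 fell in LPS against resting cells. NFE2L2, the regulator of antioxidant genes, averaged 17419 units in LC53 plus LPS cells, 28192 in LPS cells and 8441 in resting cells, and rose by 1.73 with LPS (adjusted p = 0.00695). ATF3, a stress-induced factor, averaged 3807 units in LC53 plus LPS cells, 2334 in LPS cells and 737 in resting cells, and rose by 1.66 with LPS (adjusted p = 0.0130). SPI1, also known as PU.1 and central to the monocytic lineage, averaged 441 units in LC53 plus LPS cells, 918 in LPS cells and 330.2 in resting cells, and rose by 1.46 with LPS (adjusted p = 0.0187). These calls were lost without resting replicate 1 (0.0926 for NFE2L2, 0.131 for ATF3 and 0.183 for SPI1) and without resting replicate 2 (0.0774, 0.106 and 0.126), and that of SPI1 also without either LC53 plus LPS replicate (0.0545 each). By limma none of the 14 passed in LC53 plus LPS against LPS cells, and ATF3 alone passed in LC53 plus LPS against resting cells (2.35, adjusted p = 0.00908), lost without LC53 plus LPS replicate 1 (0.0508) or 2 (0.0691) and without resting replicate 1 (0.107) or 2 (0.0863). The factors' median was 0.33 in LPS against resting cells, -0.30 in LC53 plus LPS against LPS cells and 0.13 in LC53 plus LPS against resting cells.

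Of 18 other EF-hand and calcium-binding proteins 15 were measured. RCN1, reticulocalbin of the endoplasmic reticulum, averaged 3464 units in LC53 plus LPS cells, 4881 in LPS cells and 1990.4 in resting cells. Its other probes gave 1.62 and 1.36 in LPS against resting cells (adjusted p = 0.0192 and 0.0148). By its brightest probe it was the 1 that rose with LPS (1.28, adjusted p = 0.0324). That call was lost when any single array other than LPS replicate 1 was left out (adjusted p from 0.051 to 0.267). None fell with LPS, and by limma none of the 15 passed in LC53 plus LPS against LPS or against resting cells. Of 12 monocyte genes often seen with S100A8 and S100A9, 0 rose and 1 fell in LPS against resting cells, 0 rose and 1 fell in LC53 plus LPS against LPS cells, and 0 passed in LC53 plus LPS against resting cells. MNDA, a nuclear antigen of myeloid cells, averaged 6450 units in LC53 plus LPS cells, 4160 in LPS cells and 9746 in resting cells, and fell by 1.23 on the log2 scale with LPS (adjusted p = 0.0192). The MNDA call was lost without resting replicate 1 (0.195) or 2 (0.188) and without either LC53 plus LPS replicate (0.0593 each). PLAC8 averaged 23427 units in LC53 plus LPS cells, 51651 in LPS cells and 42576 in resting cells. Its other probes gave -1.10, -1.62 and -1.63 in LC53 plus LPS against LPS cells (adjusted p = 0.0714, 0.0227 and 0.0252). The probe at -1.62 also rose by 1.07 in LPS against resting cells (adjusted p = 0.0429). By its brightest probe PLAC8 fell by 1.14 on the log2 scale in LC53 plus LPS against LPS cells (adjusted p = 0.0371). Of single arrays left out, only LPS replicate 2 left the PLAC8 call in place (0.222, 0.267, 0.0565, 0.155 and 0.155 without the others). Medians of these lists lay between -0.12 and 0.18 in the 3 comparisons.

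Genes with the pattern nearest to S100A12 and to S100P were sought among 18184 genes, by the root mean square difference of log2 values over the 6 arrays after centring each gene on its own mean. For S100A12 the nearest was PTGS2, the inducible cyclooxygenase, at 0.0904, followed by RASGEF1B at 0.123 and TNIP1 at 0.130. PTGS2 averaged 491 ± 55.1 units in LC53 plus LPS cells, 1859 ± 90.0 in LPS cells and 229 ± 30.3 in resting cells. For S100P the nearest was ST7L at 0.0774, followed by MGST1, a microsomal glutathione transferase, at 0.113 and TRIM2 at 0.117. MGST1 averaged 8639 ± 2285 units in LC53 plus LPS cells, 3365 ± 765 in LPS cells and 3493 ± 232 in resting cells. These genes share arrays and scaling with the members, and the ranking is a description over 6 arrays.

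**Figure D5:**
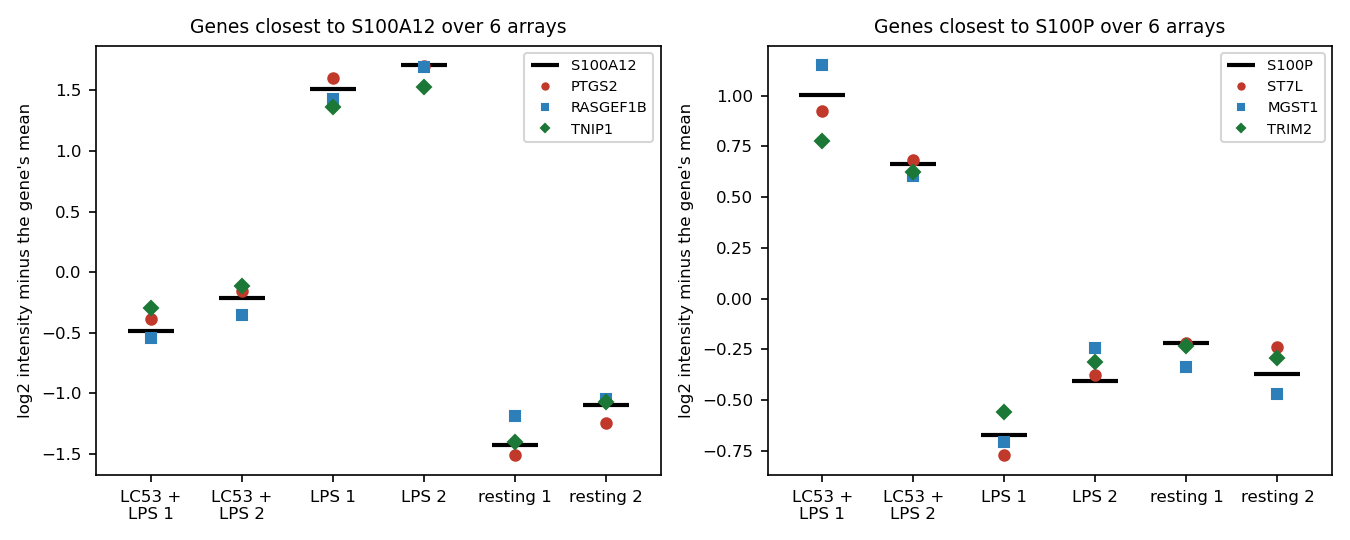
Log2 intensity minus each gene's mean (y axis) on the 6 arrays for S100A12 with its 3 nearest genes and for S100P with its 3 nearest genes; bars mark the S100 gene and symbols the others. PTGS2, at 0.0904, and ST7L, at 0.0774 root mean square difference, lie closest to the S100A12 and S100P values.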

How the data were processed

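The 6 arrays are described by 1 deposited table of linear intensity per probe (unit intensity, per the labels a Cy5 signal from amplified RNA). Scanner, background correction and normalization are not given in the sources used here. Each deposited column is whole numbers times 1 factor (0.906 to 1.12, within 0.02 of a whole unit), so probes at 65500 or more whole units were taken as saturated. Of 31741 probes, 24658 had 1 gene symbol, 1002 several (not named) and 6081 none; 2177 symbols were updated through RefSeq names. A gene is represented by its brightest probe.

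Values under 1 were set to 1 and log2 values were fitted with limma 3.58.1 (R 4.3.3), 1 mean per group over all 6 arrays, 2-sided, with Benjamini-Hochberg adjustment over all probes and a threshold of 0.05. On simulated data of 31741 probes for LPS against resting cells, the fit called 0 of 100 probes changed by 1 (log2) and 30 of 100 changed by 2, with 2 false calls. No other simulated probes were changed, whereas 2069 probes were called in the real comparison. The adjusted p depends on how many probes change, so these shares do not give the rate of calls in the real data. Tables and figures used Python 3.11.15.

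The members and lists were chosen with earlier results of these data known. All 8 members are named; other lists are counted, naming per list and comparison up to 3 called genes with the largest difference, and all other S100 genes. The nearest genes were sought for members that were called and unsaturated. Motifs were searched on both strands of RefSeq promoter windows (GRCh38.p14), in which all 8 members were found. Alternatives were quantile normalization, median centring, cyclic loess, an offset of 50, leaving out probes with a mean under 50, a replicate block, only the 4 arrays compared, leaving out each array, and undoing the array factors. The last, and those of genes other than the members, were added after seeing the data.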

Additional observations from a re-analysis of the deposited data

How the results depend on the processing

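Over 21 differences of the 7 members other than S100A4 and 14 alternatives each (294 values), 286 kept their sign; 243 also kept their side of the threshold, 33 passed newly and 10 no longer passed. Each member has 1 probe that carries its symbol alone, so averaging such probes gives the same value.

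Signs turned for S100A6, whose LC53 plus LPS values include 1 at the ceiling, and S100A11. For S100A6 they did so in LPS against resting cells without LPS replicate 1 (range over single arrays left out -0.20 to 0.036), in LC53 plus LPS against LPS cells after cyclic loess (-0.12), and in LC53 plus LPS against resting cells after quantile normalization (-0.032), median centring (-0.043), cyclic loess (-0.16) and without resting replicate 2 (range -0.00286 to 0.096). For S100A11 in LC53 plus LPS against resting cells they did so without LC53 plus LPS replicate 2 and without resting replicate 2 (range -0.17 to 0.12).

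Member calls numbered 1 in LPS against resting cells, 2 in LC53 plus LPS against LPS cells and 0 in LC53 plus LPS against resting cells. In that order of comparisons they became 4, 5 and 2 after quantile normalization, 3, 4 and 1 after median centring, 5, 5 and 2 after cyclic loess, 3, 3 and 2 with an offset of 50 and 3, 3 and 2 without dim probes. In LC53 plus LPS against LPS cells 1 was called with only the 4 arrays and 1 with scaling undone. Leaving out 1 array gave 1 to 2, 0 to 2 and 0 to 0 calls.

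Calls over all probes were 2069, 834 and 941. They became 5157, 3755 and 3494 after quantile normalization, 3802, 2416 and 2440 after median centring, 5032, 3585 and 3370 after cyclic loess, 3494, 2352 and 2197 with an offset of 50, 3079, 1856 and 1925 without dim probes, 1200, 305 and 1555 with only the 4 arrays, and 954, 270 and 298 with scaling undone. Leaving out 1 array gave 479 to 2579, 91 to 2318 and 75 to 1555. Scaling moved the split of higher to lower calls: as deposited it was 1276 to 793, 218 to 616 and 557 to 384, and after quantile normalization 2553 to 2604, 1650 to 2105 and 1519 to 1975. Without LPS replicate 2 it was 981 to 1598 in LPS against resting cells and 1695 to 623 in LC53 plus LPS against LPS cells. The median LC53 plus LPS against LPS difference of all probes, 0.15 as deposited, was 0.06 after quantile normalization. The cause of these moves was not tested.

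The groups share replicate numbers 1 and 2. Deviations of same-numbered arrays correlated at 0.06 (resting and LPS), 0.20 (resting and LC53 plus LPS) and -0.08 (LPS and LC53 plus LPS), and the labels give the numbers no further meaning, so they were not taken as pairs. With the replicate number as a block, 1492, 389 and 481 probes were called, and S100P in LC53 plus LPS against LPS cells no longer passed (adjusted p = 0.0836), leaving 1 member called there. The block also ended the calls of LY96 against LPS (0.0704) and resting cells (0.0696), IL1A against LPS (0.0690) and resting cells (0.0526), RCN1 (0.0615) and PLAC8 (0.0725). With scaling undone the same 6 calls were lost (0.105 to 0.143), as were ANXA2 in LC53 plus LPS against resting cells (0.0518), SPI1 (0.0693) and MNDA (0.0894). With only the 4 arrays compared LY96 (0.151), IL1A (0.153) and PLAC8 (0.155) against LPS cells, RCN1 (0.0785), SPI1 (0.0545) and MNDA (0.0593) were lost. Dim probes and 2 arrays a group limit what could be detected.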
